A study of Mus musculus with 74 samples.

Results

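Nanog SunTag cells are mouse embryonic stem (ES) cells in which the cell's own Nanog gene can be switched up on demand, and the libraries described here ask what happens to the transcriptome when this is done while the cells are already self-renewing. Of the 35 RNA-seq libraries of the series with deposited counts, 5 were chosen by their labels. They were Nanog SunTag cells grown with LIF and doxycycline (+Dox, 2 libraries) and the same cells grown with LIF and no doxycycline (-Dox, 3 libraries). All 5 came from E14Tg2a-derived lines kept in serum with LIF at 10 ng/mL, and all carried the rtTA activator, the TRE-driven SunTag cassette and a guide RNA against the Nanog promoter. Dox was given at 1 ug/mL for 3 days to the +Dox cells. Each line goes back to 1 of 2 picked clones, C1 and C2. The -Dox libraries were 1 of clone C1 (C1-1) and 2 of clone C2 (C2-1 and C2-2), and the +Dox libraries were 1 of each clone (C1-1 and C2-1). There were no libraries of cells with Dox and no Nanog guide, so effects of Dox or of the SunTag proteins and effects of Nanog cannot be told apart in these 5 libraries.

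Nanog is a homeodomain transcription factor that holds ES cells in an undifferentiated state, and cells that make much of it can go on self-renewing without LIF. LIF is the cytokine that feeds the same state from outside, through its receptor, Jak kinases and Stat3, which keep genes such as Klf4 and Esrrb active. In the SunTag system an inactive Cas9 (dCas9) carries a chain of GCN4 epitopes. Each epitope binds an antibody fragment fused to the activator VP64, so that a single guide brings many activators to a promoter.

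The guide is shown because it defines the perturbation, with the PAM in capitals:

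Nanog guide target: cttcccactagagatcgccaGGG

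In mm9 it has a single perfect match, at chr6:122657269-122657291 on the plus strand, outside any annotated exon or intron. The 20-base target lay 219 to 238 bp upstream of the first annotated Nanog start (122657507, plus strand). The 250 bases that end at that start are shown next, with the guide target and PAM as the first run of capitals and a composite Oct-Sox motif, the kind of site that Oct4 and Sox2 share, as the second:

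Nanog upstream window, chr6:122657257-122657506, plus strand: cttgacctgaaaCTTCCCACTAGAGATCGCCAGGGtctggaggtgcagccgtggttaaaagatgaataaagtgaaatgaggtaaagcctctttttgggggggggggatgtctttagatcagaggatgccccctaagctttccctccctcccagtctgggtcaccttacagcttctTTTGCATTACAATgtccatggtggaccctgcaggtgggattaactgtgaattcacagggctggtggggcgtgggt

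The motif was searched on both strands as ATTGT, any base and ATGCAAA, stood here on the minus strand, and lay 140 bases after the PAM. The same letters were found in 8 of 32851 RefSeq promoter windows (GRCm38.p6, slightly longer windows), or 0.0244%. Genome-wide, no other site next to an NGG PAM matched the guide with 1 or 2 mismatches, 4 sites matched with 3, none of them within 1 kb of an annotated start, and 62 matched with 4, of which 2 were within 1 kb of a start. Among the RefSeq promoter windows of 27025 genes, only those of Nanog, Olfr391 and Rtl5 held a match with at most 4 mismatches. Olfr391-ps, the gene at the Olfr391 site, had 0 counts in all 5 libraries. Rgag4, the name the tables use for Rtl5, had 2.68, 5.03 and 6.24 normalised counts in the -Dox libraries (C1-1, C2-1 and C2-2) and 5.60 and 8.97 in the +Dox libraries, too few to be tested. Neither gene, then, was among those with a high level under Dox.

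The libraries held 10937367 to 30457669 estimated counts each. The values below are normalised counts, the estimated counts divided by a size factor for each library, and they compare libraries for 1 gene, not genes with each other. The -Dox C1-1 library, the shallowest, stood apart from the rest. The first principal component, with 46.9% of the variance of the 5 libraries, separated it from the others (a score of 0.894 against -0.252 to -0.203), and its deviation from the mean of the 5 libraries followed the GC content of the genes (Spearman's rho -0.61 across genes, against 0.449 and 0.306 in the other -Dox libraries and 0.178 and 0.123 in the +Dox libraries). The counts of called genes, and several members, are given with and without it. ES cell markers were high in all 5 libraries: the summed level of 6 markers (Pou5f1, Sox2, Nanog, Esrrb, Zfp42 and Tfcp2l1) was 113537 to 125050 without Dox and 162274 to 188833 with it, while the sum of the 5 markers other than Nanog overlapped between the groups. The summed level of 3 trophoblast markers (Cdx2, Elf5 and Gata3) was 18.7 to 25.1 without Dox and 9.33 to 18.8 with it, that of 3 mesendoderm markers (T, Eomes and Mixl1) 86.1 to 188 and 482 to 688, and that of 5 fibroblast markers 145 to 506 and 726 to 733. Most of the mesendoderm sum was Eomes, while T and Mixl1 were at 20.6 or less in every library and overlapped between the groups. The part of other cells in the results was not tested. In bulk RNA, more or fewer cells of a kind and more or less RNA in each cell cannot be told apart.

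**Figure D1:**
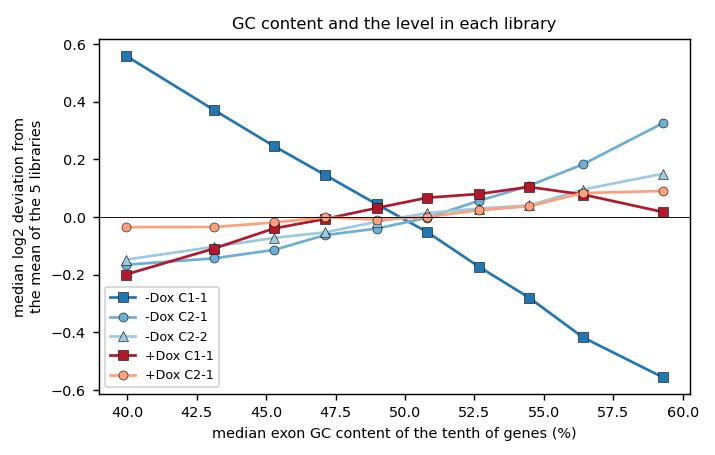
Median log2 deviation of each library from the mean of the 5 libraries (y axis) for the tested genes ordered by exon GC content in percent and binned into equal groups (x axis). Squares are clone C1, circles and triangles clone C2, blue shades without Dox and red or orange with Dox. The -Dox C1-1 line falls steadily as GC content rises, and the other 4 lines are much flatter.

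Nanog itself was raised about 3-fold over a level that was already high. Its normalised counts were 29487, 23345 and 21940 in the -Dox libraries C1-1, C2-1 and C2-2 (an order kept below) and 93813 and 75226 in the +Dox libraries C1-1 and C2-1. Both +Dox libraries lay far above all 3 -Dox libraries, and within each clone the ratio was nearly the same, 3.18 in C1 and 3.32 in C2 (mean of the C2 -Dox libraries). The log2 fold change in a fit of these 5 libraries alone was 1.76 (SE 0.24). Leaving out single libraries gave 1.59 to 1.91. The adjusted p-value of edgeR's quasi-likelihood test was nevertheless 0.256, the smallest of any gene in that fit, and 0.0793 when the 6 Nanog SunTag libraries without LIF were modelled together with these 5. The smallest p-value that an exact permutation of 2 against 3 libraries allows is 0.1. The induction of Nanog is thus given here by its size and its lack of overlap, not by a call.

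None of the 15 tested genes around Nanog on chromosome 6 had a change of this size. Within 500 kb, 31 other annotated genes have their start, and 16 of them were not expressed enough to be tested. Gdf3, a Tgf-beta family ligand, and Dppa3 (Stella), a maternal factor of the early embryo, start 97.4 kb and 81.1 kb upstream, and their libraries overlapped between the groups, as did those of Slc2a3, a glucose transporter whose start is 94.2 kb downstream. Foxj2 had both +Dox libraries above the -Dox libraries, at 132 and 132 against 107 to 114 normalised counts (log2 fold change 0.26, unadjusted p = 0.456). Apobec1, Rimklb and Phc1 had both +Dox libraries below. Of the 15, Phc1, a Polycomb protein, was the only gene with an unadjusted p under 0.05 (0.0128), and none was called in the 11-library model.

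Most genes differed little between the groups. Across 14934 tested genes the median log2 fold change was -0.0037, the quartiles were -0.28 and 0.30, and 840 genes were above 1 against 500 below -1. The median standard error of 0.347 was larger than the change of most genes. In the fit of the 5 libraries no gene passed an adjusted p of 0.05 (0%), while 1137 had an unadjusted p under 0.05 (7.61%), 715 higher (4.79%) and 422 lower with Dox (2.83%), and DESeq2's Wald test called 163 (1.09%). Without the -Dox C1-1 library the unadjusted count was 2059 (1063 higher and 996 lower), and no gene was called. Without the +Dox C1-1 library it was 660, again with no call.

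Counted without a model, 3941 genes had libraries that did not overlap between the groups. With 2 against 3 libraries many genes do so with no effect, as an exact permutation allows no p-value under 0.1. Both +Dox libraries were above all 3 -Dox libraries for 2065 genes (13.8%) and below them for 1876 (12.6%). Of the 2065, 353 had passed the filter on low values only through the +Dox libraries, as had 812 of all 14934 tested genes, and 1712 had passed without Dox. Of all that did not overlap, 699 were also at least 2-fold higher by their means (4.68%) and 380 at least 2-fold lower (2.54%). Lack of overlap with an unadjusted p under 0.05 held for 693 genes in the higher direction (4.64%) and 415 in the lower (2.78%). These shares are the background for the gene groups below.

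**Figure D2:**
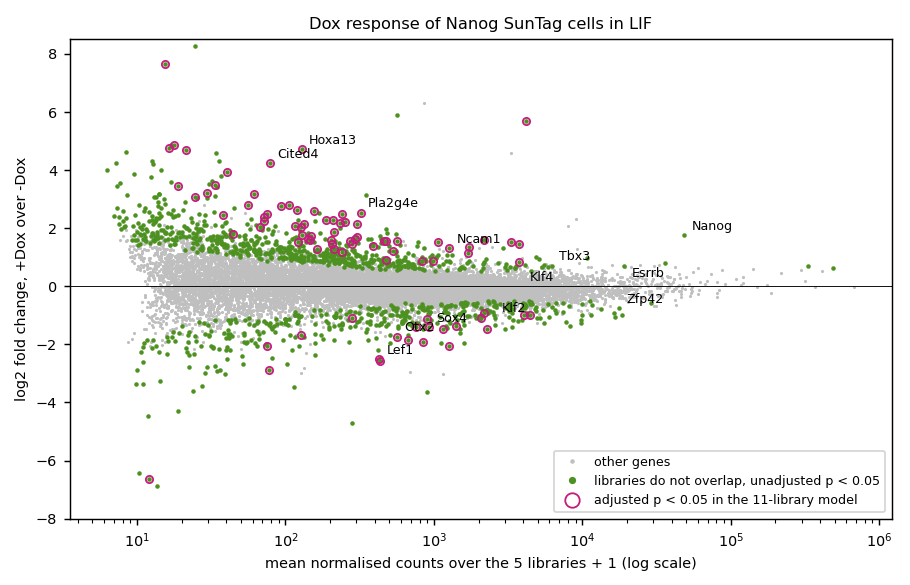
Log2 fold change with Dox in the fit of the 5 libraries (y axis) against the mean of normalised counts plus 1 (x axis, log scale) for 14934 tested genes. Green points are genes with non-overlapping libraries and an unadjusted p under 0.05, rings mark genes called in the 11-library model, and Nanog sits at 1.76 among genes of high level while Esrrb and Klf4 lie near 0.

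The second fit holds all 11 Nanog SunTag libraries, the other 6 being those without LIF (3 with and 3 without Dox). It estimates the Dox response with LIF with more libraries behind the estimate of the spread. That estimate was also smaller, with a common coefficient of variation between libraries (beyond counting noise) of 0.256, against 0.313 in the 5-library fit. The calls with LIF thus rest in part on the spread of libraries without LIF. The 11-library model called 88 of 15624 genes (0.563%), 66 that rose with Dox (0.422%) and 22 that fell (0.141%). The words "rose" and "fell" are kept for genes called in the comparison at hand, which for the cells with LIF are these 88. For all 88 the 5 libraries did not overlap, and 84 are protein coding. By the fitted log2 fold change, 62 of the genes that rose and 21 of those that fell moved at least 2-fold. The count leaned on single libraries: it was 142 without the -Dox library C1-1, 17 without -Dox C2-1, 7 without -Dox C2-2, 3 without +Dox C1-1 and 106 without +Dox C2-1. With the clone as a block it was 293 (175 higher), and with a correction for GC content 246 (130 higher and 116 lower). Every one of the 88 kept its direction in each of these fits. For the fits without single libraries, the lack of overlap all but fixes this in advance. Below, log2 fold changes and SEs of single genes with LIF come from the 5-library fit unless stated otherwise. The adjusted p-values given beside them come from the 11-library model.

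Of 4 further genes at the centre of the study, 3 overlapped between the groups. Esrrb, an orphan nuclear receptor of the naive network, had 14784, 19406 and 21159 normalised counts without Dox and 21280 and 19114 with it (log2 fold change 0.13, SE 0.23). Klf4, a zinc finger factor downstream of Stat3, had 3449, 4217 and 4234 without Dox and 3816 and 4030 with it (-0.01, SE 0.22, a sign that changes when single libraries are left out). Phf19, a Polycomb-like subunit, had 147, 193 and 190 against 250 and 127 normalised counts, the +Dox libraries lying on either side of the -Dox libraries. Otx2, a homeodomain factor that drives the exit towards the primed epiblast, was the exception: 908, 704 and 740 without Dox and 308 and 166 with it. It fell by 1.74 on the log2 scale (SE 0.35), with an adjusted p of 0.0198 in the 11-library model.

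**Figure D3:**
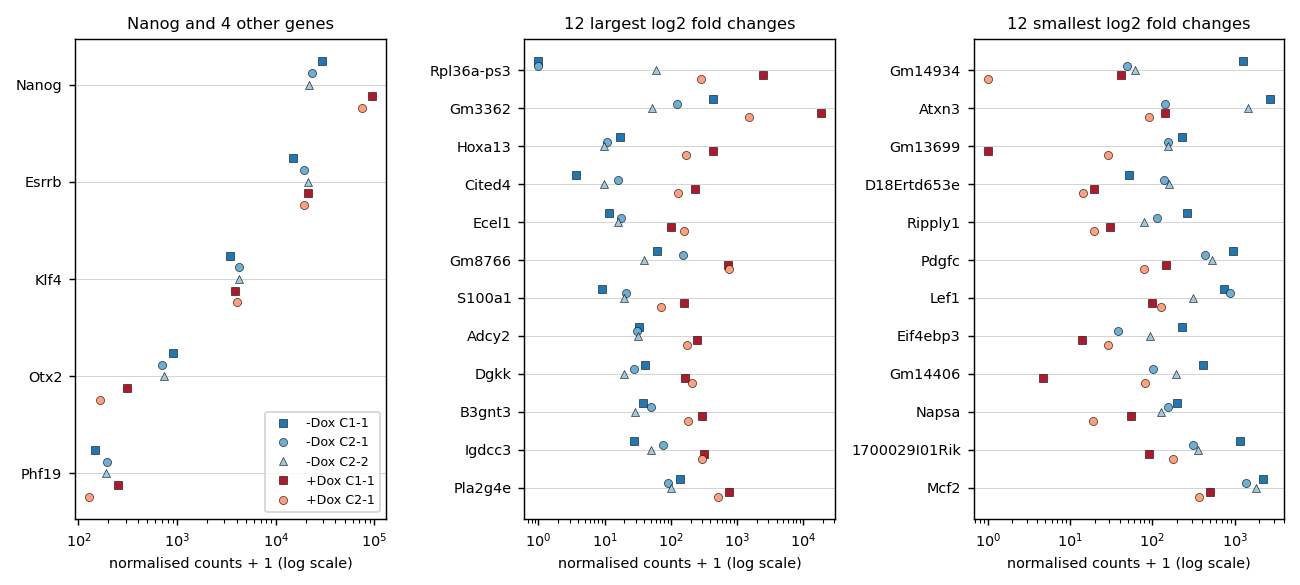
Normalised counts plus 1 (x axis, log scale) of single genes (rows) in each of the 5 libraries; blue symbols are -Dox and red or orange symbols +Dox libraries, squares clone C1, circles and triangles clone C2. Left, Nanog, Esrrb, Klf4, Otx2 and Phf19; middle and right, the 12 largest and the 12 smallest log2 fold changes among genes chosen for lack of overlap, so the gap in those panels is fixed by the choice.

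The 12 genes with the largest and the 12 with the smallest log2 fold change were taken from 744 genes (425 higher and 319 lower) with non-overlapping libraries, an unadjusted p under 0.05 and, in the group where they were higher, a mean of 100 normalised counts or more. The last gene inside was at 2.54 and the first outside at 2.52 on the higher side, and -2.07 and -2.05 on the lower side. Hoxa13, a homeobox gene of the posterior Hox group (mm9 chromosome 6, 52207693 to 52210874, minus strand), led the protein-coding genes. It went from 16.1, 10.1 and 8.74 normalised counts without Dox to 435 and 167 with it. It rose by 4.72 on the log2 scale (SE 0.56; adjusted p = 0.0141 in the 11-library model), and by 3.88 without the +Dox C1-1 library.

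Cited4, a transcriptional co-activator, was at 2.68, 15.1 and 8.74 without Dox and at 231 and 130 with it (adjusted p = 0.0198). S100a1, a calcium-binding protein, was at 8.03, 20.1 and 18.7 without Dox and at 157 and 70.9 with it (adjusted p = 0.0234). Both rose from a level near the limit of detection, and in both the C1 library with Dox was the higher one. S100a1 rose by 2.79 on the log2 scale with all 5 libraries and by 2.12 without the +Dox C1-1 library.

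Pla2g4e, a cytosolic phospholipase A2 (mm9 chromosome 2, 119992148 to 120071071, minus strand), went from 139, 88.8 and 101 to 752 and 518, a ratio of 5.40 in C1 and 5.45 in C2. Dgkk, a diacylglycerol kinase, went from 40.2, 26.8 and 18.7 to 166 and 209. Adcy2, an adenylate cyclase, went from 32.1, 30.2 and 31.2 to 254 and 179. All 3 rose, with log2 fold changes of 2.54 (SE 0.33), 2.75 (SE 0.45) and 2.78 (SE 0.37) and adjusted p-values of 0.0141, 0.0178 and 0.0198.

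Ecel1, a membrane metallopeptidase, went from 10.7, 16.8 and 15.0 to 101 and 160. B3gnt3, a glycosyltransferase, went from 37.5, 50.3 and 27.5 to 295 and 183. Igdcc3, an immunoglobulin-family membrane protein, went from 26.8, 75.4 and 49.9 to 321 and 299. The 3 genes rose by 3.17 (SE 0.46), 2.63 (SE 0.42) and 2.58 (SE 0.43) on the log2 scale, with adjusted p-values of 0.0396, 0.031 and 0.0141.

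The remaining 3 of the 12 need care. Gm8766 had 61.6, 154 and 38.7 without Dox and 731 and 762 with it, a clear gap, yet was not called in the 11-library model (adjusted p = 0.304). Rpl36a-ps3 and Gm3362 are annotated as pseudogenes, whose reads can be shared with other copies, so that their counts are uncertain. Gm3362 was at 431, 122 and 51.2 without Dox and at 18830 and 1510 with it (adjusted p = 0.0476), and its log2 fold change of 5.68 went to 2.92 without the +Dox C1-1 library. Rpl36a-ps3 was at 0, 0 and 59.9 without Dox and at 2490 and 285 with it, and was not called (adjusted p = 0.12).

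Among the 12 genes with the smallest log2 fold changes, 4 fell. Lef1, the Wnt-responsive transcription factor that partners beta-catenin (mm9 chromosome 3, 130813389 to 130927274, plus strand), went from 739, 865 and 315 without Dox to 98.8 and 125 with it. Pdgfc, a platelet-derived growth factor ligand, went from 967, 431 and 532 to 144 and 78.0. Mcf2, a guanine nucleotide exchange factor, went from 2193, 1378 and 1840 to 498 and 367, with a ratio of 0.227 in C1 and 0.228 in C2. They fell by 2.51 (SE 0.49), 2.56 (SE 0.48) and 2.07 (SE 0.31) on the log2 scale, with adjusted p-values of 0.0198, 0.0234 and 0.0198. D18Ertd653e, at 50.9, 139 and 159 without Dox and 18.7 and 13.5 with it, fell as well (adjusted p = 0.0368).

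The other 8 were lower with Dox without a call. Ripply1, a transcriptional repressor of somite formation, was at 265, 114 and 78.7 without Dox and 29.8 and 18.8 with it (adjusted p = 0.0821), and Napsa, an aspartic protease, at 198, 153 and 127 against 54.1 and 17.9 (adjusted p = 0.105). In Atxn3, a deubiquitinase, the -Dox libraries themselves ranged over 2707, 141 and 1437, and the lowest of them was level with the +Dox values of 140 and 89.7. Eif4ebp3, a translation repressor, showed a like spread, with 230, 36.9 and 92.4 against 13.1 and 27.8. Gm14406 was at 412, 101 and 194 against 3.73 and 80.7. The pseudogenes of the set, Gm14934, Gm13699 and 1700029I01Rik, again have uncertain counts, and Gm14934 and Gm13699 each had a +Dox library at 0. In Gm14934 the -Dox C1-1 library held nearly all of the counts, with 1253 against 48.6 and 59.9. Without that library the log2 fold changes of Gm14934, Atxn3, Eif4ebp3 and 1700029I01Rik went from -4.70, -3.66, -2.47 and -2.18 to -1.57, -2.80, -1.59 and -1.30.

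Groups of genes were read from 22 lists. Over all tested genes, 13.8% had both +Dox libraries above and 12.6% both below the -Dox libraries. The naive and core pluripotency list showed no common direction: of 27 members, all tested, 4 had both +Dox libraries above and 6 both below the -Dox libraries, none was called, and the median log2 fold change was -0.014 against -0.0037 for all genes. Nanog, Tbx3, Nr5a2, Klf2 and Zfp42 were the 5 members with both no overlap and an unadjusted p under 0.05. Pou5f1 (Oct4), Sall4, Stat3, Tfcp2l1 and Klf5 overlapped between the groups. Tbx3, a T-box factor of the naive network, was higher in both +Dox libraries (8717 and 7593 against 4169 to 5828; unadjusted p = 0.0154). Zfp42 (Rex1), a marker of the naive state, was lower, with 23743, 19448 and 20455 without Dox and 11274 and 13862 with it (log2 fold change -0.75, SE 0.24). Klf2, which shares targets with Klf4, was at 3304, 2913 and 3534 without Dox and 2048 and 1022 with it, and Nr5a2, a nuclear receptor, at 1687, 1894 and 1903 against 582 and 1061. For these 3 lower genes the adjusted p-values in the 11-library model were 0.144, 0.138 and 0.252.

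The formative and primed epiblast list, genes that switch on as ES cells leave the naive state, held 3 of the 4 list members that fell. Of 20 tested members (of 21, all 20 passing the filter without Dox), 1 was above and 6 were below the -Dox libraries. The shares were 5% and 30%, against 13.8% and 12.6% of all tested genes and 6.67% and 26.7% of the reference genes. Otx2, Lef1 and Sox4 fell. Sox4, an HMG-box factor, went from 1473, 1153 and 1074 to 423 and 508, and fell by 1.40 (SE 0.28; adjusted p = 0.0159). Sall2 was lower without a call, at 93.7, 149 and 162 against 42.9 and 63.7. Dnmt3a and Dnmt3l, a de novo DNA methyltransferase and its cofactor, were below by 0.58 and 0.40 (log2) with unadjusted p-values of 0.061 and 0.107. The rest of the list did not share this: Pou3f1 (Oct6), Zic2, Zic5, Cdh2 and Foxd3 overlapped, Fgf5 had at most 13.4 normalised counts in any library, and the median of the list was -0.32, which became 0.064 without the -Dox C1-1 library.

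Hoxa13 and Evx1 were the Hox and Evx genes that rose, both from low levels. Of 41 Hox and Evx genes, 13 were tested, and 10 of these passed the filter only through the +Dox libraries, so that no count over the 13 is read as evidence. Besides Hoxa13, Evx1, the homeobox gene at the end of the same cluster, rose from 8.03, 6.70 and 4.99 normalised counts to 97.0 and 26.0 (log2 fold change 3.20, SE 0.71; adjusted p = 0.0476). Without the +Dox C1-1 library its log2 fold change was 2.01. Hoxa10 was at 8.03, 8.38 and 2.50 without Dox and 83.9 and 19.7 with it, and was not called (adjusted p = 0.148). Hoxa9 had at most 2 counts in any -Dox library and stood at 42.9 and 10.8 normalised counts with Dox. In all 4 genes the C1 +Dox library was the higher one.

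Of the trophoblast list, 17 of 20 genes were tested, 16 of them expressed without Dox. Of the 17, 9 had both +Dox libraries above and 1 both below the -Dox libraries. These were 52.9% and 5.88%, against 13.8% and 12.6% of all tested genes. Of the 9, 1 had passed the filter only with Dox. Eomes, a T-box factor of trophoblast and of the primitive streak, rose from 147, 161 and 72.4 to 677 and 447 (log2 fold change 2.15, SE 0.41; adjusted p = 0.0234). Tead4, a partner of Yap, rose from 222, 261 and 291 to 964 and 561 (1.55, SE 0.31; 0.0234), and the keratin Krt8 from 126, 191 and 137 to 479 and 424 (1.57, SE 0.31; 0.0159). Hand1, with 0 to 3 counts in each -Dox library, had 61.5 and 11.7 normalised counts with Dox. Cdx2 and Elf5, which define the lineage, were under 10 normalised counts in every library, and Gata3 was at 18.7, 21.8 and 13.7 without Dox and 0 and 11.7 with it.

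Of the primitive streak and mesendoderm list, 9 of 20 genes were tested, and Eomes and Evx1 were the 2 that rose, while Mixl1, Snai1 and Mesp2 overlapped. In the neural list, with 10 of 20 tested, Ncam1, a cell adhesion molecule, rose from 830, 808 and 737 to 2040 and 1915 (1.32, SE 0.22; adjusted p = 0.0141), with ratios of 2.46 in C1 and 2.48 in C2. Pax2 was at 0, 13.4 and 2.50 without Dox and at 61.5 and 70.9 with it (adjusted p = 0.0745). Sox11 was lower, at 42.8, 53.6 and 40.0 against 9.33 and 10.8 (0.0581). Of 18 extraembryonic endoderm genes tested, 16 overlapped, Gata4, Gata6 and Sox17 among them.

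**Figure D4:**
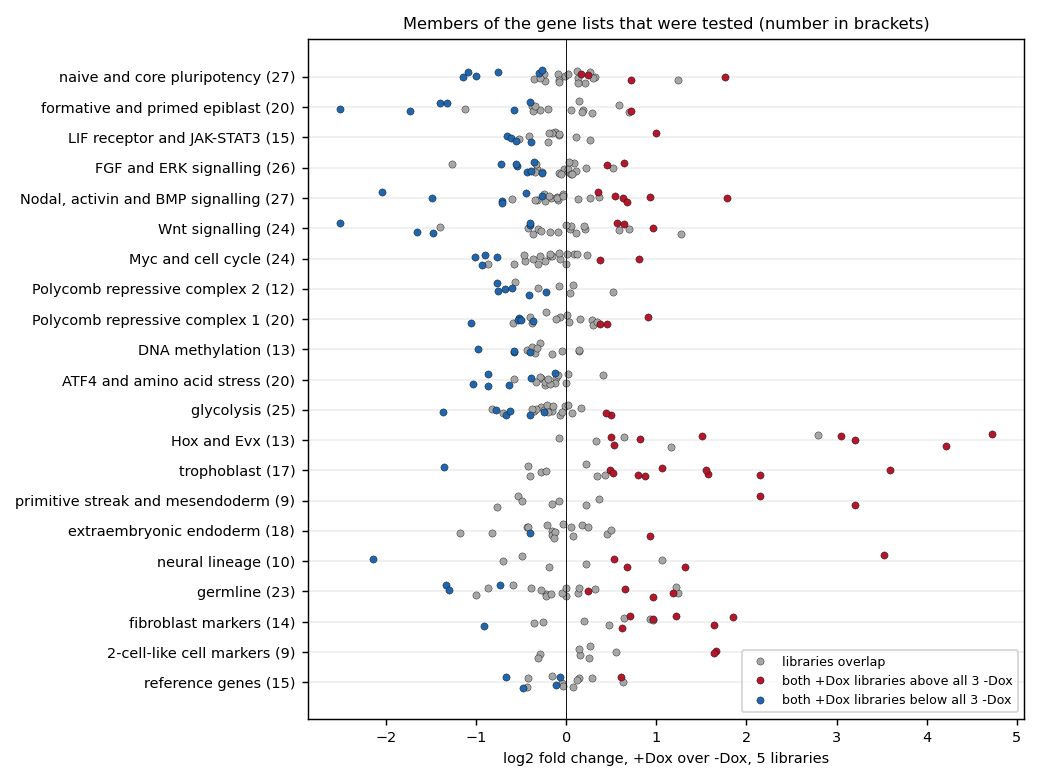
Log2 fold change with Dox in the fit of the 5 libraries (x axis) for the tested members of 21 gene lists (rows, number tested in brackets). Red points have both +Dox libraries above all 3 -Dox libraries, blue points both below, grey points overlap; Polycomb repressive complex 2 and ATF4 members hold no red points, and the far right of the Hox and Evx row holds genes near 0 counts without Dox.

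Of the chromatin lists, Polycomb repressive complex 2 and DNA methylation leaned to lower values, without a call. Polycomb repressive complex 1 did not, with a median log2 fold change of -0.091, 9 members above 0 and 11 below. The shares with both +Dox libraries below were 50%, 30.8% and 25% for these 3 lists. They compare with 12.6% of all tested genes and 26.7% of the reference genes. Of 12 tested members of Polycomb repressive complex 2, which lays down H3K27me3, none was above and 6 were below the -Dox libraries, and the median log2 fold change was -0.36. It was -0.30 with a correction for GC content and -0.10 without the -Dox C1-1 library. Jarid2, which guides the complex to its sites, had 16835, 16015 and 14996 normalised counts without Dox and 8303 and 10444 with it (adjusted p = 0.104). Aebp2 and Eed were lower too, by 0.76 and 0.68 (log2), with -Dox C1-1 the highest library for both genes, and by 0.48 and 0.43 without it. Of 20 Polycomb repressive complex 1 genes 3 were above (1 of which had passed the filter only with Dox) and 5 below, led by Phc1, at 13622, 25385 and 24330 against 8413 and 11777. The DNA methylation list had a median log2 fold change of -0.35, or -0.46 with a correction for GC content and -0.18 without the -Dox C1-1 library. Of its 13 genes none was above and 4 were below. Among these, Tet1, which oxidises methylcytosine, stood at 22461, 9620 and 10488 without Dox and 6996 and 7484 with it. Its log2 fold change of -0.98 became -0.46 without the -Dox C1-1 library.

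Most signalling lists were mixed, beside 13.8% above and 12.6% below over all tested genes. Among 15 genes of the LIF receptor and Jak-Stat3 pathway 1 was above, Jak2 (230, 153 and 122 against 371 and 300), and 4 were below. This list leaned to lower values, with 12 of 15 log2 fold changes negative. The median was -0.19, or -0.27 with a correction for GC content and -0.41 without the -Dox C1-1 library. Il6st (gp130), the signalling chain of the LIF receptor, was at 1923, 1499 and 1448 against 882 and 1166, and Pim1, a target of Stat3, at 1478, 2112 and 1732 against 1149 and 1160. Socs3, the feedback inhibitor of the pathway, overlapped. Of 26 FGF and ERK genes 2 were above and 7 below, of which Spry4, a feedback inhibitor of ERK, was at 5251, 4204 and 5034 against 2936 and 2926.

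In the Nodal, activin and BMP list, 6 of 27 tested genes were above and 6 below (22.2% each, against 13.8% and 12.6% of all tested genes). Of the 6 above, 2 had passed the filter only with Dox. Smad7, an inhibitory Smad, was at 1451, 1899 and 1954 without Dox and 2680 and 2784 with it, and the BMP antagonist Nog at 3.35 to 6.24 against 18.7 and 17.0. Nodal (1101, 1544 and 1611 against 1050 and 686), its feedback antagonist Lefty1 and the Smad corepressor Skil were lower, Lefty1 and Skil by 2.04 and 1.49 (log2) and by 1.06 and 0.90 without the -Dox C1-1 library. None of these 5 genes was called. Of 24 Wnt genes 3 were above (1 of which had passed the filter only with Dox) and 5 below, and besides Lef1 the receptors Fzd7 (2453, 1827 and 1787 against 796 and 653) and Fzd2 were lower, with adjusted p-values of 0.138 and 0.0751.

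Of 24 Myc and cell cycle genes 2 were above and 4 below (8.33% and 16.7%, against 13.8% and 12.6% of all tested genes). Ccnd1 (cyclin D1), which carries growth signals into the cell cycle, fell from 2600, 2767 and 2621 to 1505 and 1340 (log2 fold change -0.91, SE 0.22; adjusted p = 0.0234). Mycn was at 2881, 2137 and 2569 against 1289 and 1226 (adjusted p = 0.117), and Cdkn1c and Cdk6 were lower as well. The ATF4 list, genes induced by amino acid shortage and unfolded protein, had none above and 6 below of 20 (median -0.24). Ddit4, an inhibitor of mTORC1, was at 2592, 2239 and 1675 against 970 and 1148 (adjusted p = 0.0745), and Ddit3, Chac1 and Trib3 were lower, while Atf4 itself overlapped. Of 25 glycolysis genes 2 were above and 6 below. Ldhb, a lactate dehydrogenase subunit, ran from 4707 to 15620 among the -Dox libraries, against 3825 and 4641.

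The marker lists of other cells held no further calls. Of 23 germline genes 4 were above and 3 below (17.4% and 13.0%, near the 13.8% and 12.6% of all tested genes). Kit (2415, 2660 and 2261 against 3434 and 4264) and Rhox6 were on the higher and Prdm1 and Tdrd12 on the lower side, all uncalled. Of 14 tested fibroblast markers, 6 were above and 1 below, and 2 of the 6 were among 3 that had passed the filter only with Dox. Vim, an intermediate filament protein, was at 2348, 3505 and 2809 against 5099 and 3785, Col1a2 at 6.24 to 11.7 against 41.0 and 23.3, and Fn1, the member below, at 15164, 22619 and 22962 against 9454 and 11926. The sum of 5 defining fibroblast markers given above was nearly all Thy1, and Col3a1 and Dcn were at or near 0. Sums of 2-cell-like markers were 709 to 4798 without Dox and 2411 to 3228 with it, with -Dox C1-1 the highest. Of the 18 p53 targets 2 were below and none above, and of 15 reference genes 1 was above and 4 below.

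The 88 genes called with LIF were then followed in other libraries of the series. The 6 libraries without LIF were part of the 11-library model that called them and entered its estimate of the spread, so that they are not independent of the call. In Nanog SunTag cells without LIF (3 libraries with Dox and 3 without), where Nanog went from 5916 ± 3271 to 51805 ± 5875 normalised counts (mean ± SD, n = 3 each), 48 of the 66 genes that rose with LIF were higher with Dox (72.7%; 52.5% of all genes higher with LIF), 15 of them called (3.6% of all genes were called higher). Of the 22 that fell, 16 were lower (72.7%, against 51.8%), 2 of them called (1.54% of all genes lower). Among all genes higher with LIF 343 of 7529 were called higher without it, and among those lower 128 of 8079 were called lower. The median log2 fold changes of the 66 and the 22 genes without LIF were 0.45 and -0.36. With LIF, where the call itself had chosen them, they were 2.03 and -1.61.

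Single genes took different courses. Hoxa13 rose without LIF too, from 1.52 ± 0.846 to 111 ± 32.3 normalised counts (log2 fold change 6.18), and so did Pla2g4e (3.89) and Ncam1 (2.12). Ecel1, B3gnt3, Krt8 and Igdcc3 did not go with them, with log2 fold changes of -0.61, -0.58, -0.38 and -0.045 without LIF. For these 4 genes the difference between the responses with and without LIF passed its own test (adjusted p = 0.0352, 0.0258, 0.00852 and 0.014). Without Dox, Igdcc3 was already higher without LIF (231 ± 43.4 normalised counts) than with it (50.7 ± 24.3). Ecel1 was at 20.8 ± 9.18 and 14.2 ± 3.11 in these groups, and B3gnt3 at 28.1 ± 12.7 and 38.4 ± 11.4. Lef1 and Ccnd1, which fell with LIF, stood at -0.15 and 0.19 without it, and differed as well (0.0283 and 0.0174). Esrrb, Klf4 and Zfp42 went the other way: their log2 fold changes without LIF were 3.23, 2.39 and 3.11. With LIF they were 0.13, -0.01 and -0.75. For Esrrb this was a rise from a low level, 676 ± 162 to 6182 ± 431 normalised counts. It stayed below the 18449 ± 3293 of cells with LIF and no Dox. The paper calls the rescue of Esrrb and Klf4 by Nanog without LIF marginal. In all, 302 of 15624 genes responded differently (1.93%), 207 of them with the lower value in the presence of LIF (1.32%) and 95 with the higher (0.608%). That count was 481 without the -Dox library C1-1, 158 without -Dox C2-1, 174 without -Dox C2-2, 111 without +Dox C1-1 and 183 without +Dox C2-1, and 709 with the clone as a block.

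In 44iN cells, which lack both copies of Nanog and make it from a Dox-driven transgene, cells with Dox were compared with cells 24 h after its removal (2 libraries each). Nanog was at 15880 ± 3555 against 722 ± 24.0 normalised counts there. Of the genes that rose in SunTag cells, 63 of 65 with a value were higher with Dox in 44iN cells (96.9%, against 68.0% of all genes higher in the SunTag cells), and of those that fell 17 of 21 were lower (81.0%, against 57.1%). Calls in 44iN cells were 6 (0.121% of all genes) and 1 (0.00639%), all in the same direction. Among all genes higher in the SunTag cells 19 of 7284 were called higher in 44iN cells, and among those lower 1 of 7884 was called lower. Otx2 fell in both (194 ± 33.2 with Dox against 1574 ± 275 without, in 44iN cells). Hoxa13, Pla2g4e and Ncam1 rose in both, with log2 fold changes of 5.65, 4.60 and 1.97 in 44iN cells. Kit, which encodes a receptor tyrosine kinase and was higher but uncalled in SunTag cells with LIF, rose in 44iN cells by 1.91 (adjusted p = 0.0181). The difference between the 2 systems was called for no gene of 15642 by edgeR (0%), with 514 at an unadjusted p under 0.05 (3.29%), and for 15 by DESeq2, so genes particular to either system were not resolved.

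Nanog/Otx2 SunTag cells were made from the Nanog SunTag clones by adding a guide against the Otx2 promoter, and their guide and their set of libraries, named differently in the labels, cannot be told apart. With LIF (4 libraries with Dox and 3 without) their Nanog level went from 19480 ± 1110 to 44065 ± 3835 normalised counts. Of the 66 genes, 65 were higher (98.5%, against 60.7%), 44 of them called (4.97% of all genes). Of the 22 genes 20 were lower (90.9%, against 72.8%), 14 of them called (2.32%). Among all genes higher in the Nanog SunTag cells with LIF 694 of 7305 were called higher here. Among those lower 329 of 7898 were called lower. Otx2, the target of the added guide, was called in the opposite direction, with 952 ± 187 without Dox and 3509 ± 243 with it. It was the only gene of 15633 whose response differed between the guides by edgeR (0.0064%; adjusted p = 0.0017). In these cells, with Otx2 higher under Dox, Lef1, Pdgfc, Sox4 and Mcf2 fell, by 1.37, 2.91, 1.16 and 1.38 on the log2 scale (adjusted p = 0.0261, 0.000843, 0.00161 and 0.00184). Hoxa13, Adcy2, Dgkk and Igdcc3 rose, by 4.36, 2.26, 2.04 and 2.06 (adjusted p = 0.00186, 0.00135, 0.00281 and 0.00508). Other named genes were higher without a call: Pla2g4e (1.04), B3gnt3 (0.93), Evx1 (1.22), S100a1 (0.63) and Tead4 (0.38), with adjusted p-values of 0.0933, 0.101, 0.253, 0.475 and 0.288. Gm3362 had a log2 fold change of -1.05, also uncalled.

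**Figure D5:**
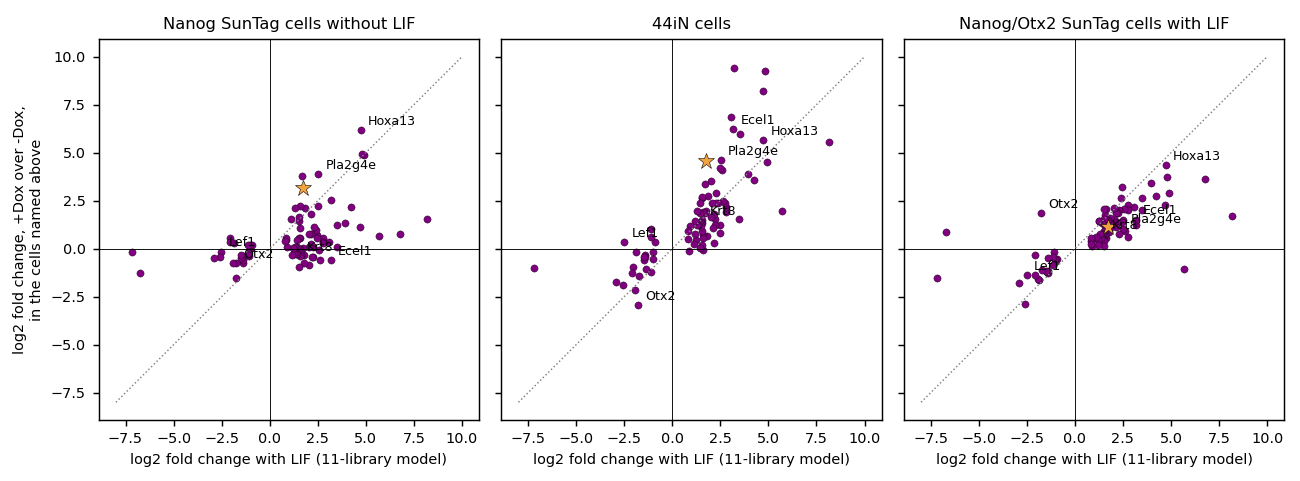
Log2 fold change with Dox of the 88 genes called with LIF (x axis, 11-library model) against their log2 fold change in Nanog SunTag cells without LIF (left), 44iN cells (middle, 86 genes with a value) and Nanog/Otx2 SunTag cells with LIF (right); the dotted line marks equal values and the star is Nanog. Most points share their sign across cells, many lie close to 0 in the left panel, and Otx2 lies in the opposite quadrant on the right.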

How the data were processed

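RNA-seq (stranded, polyA-selected, single-end) of Nanog SunTag cells was taken from the deposited tables. The authors aligned reads to mm9 with STAR, estimated counts per gene with RSEM and rounded them (expected counts). The second deposited table holds a signal, these counts divided by DESeq2 size factors over all 35 libraries, called normalised counts here. CASAVA 1.8 is named in the submitters' processing notes. The 37620 genes were named from the table. Library totals of 10937367 to 30457669 limit precision for genes of low level. Whether libraries of a clone came from separate cultures is not stated, so the p-values measure the spread between the libraries of each model.

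A gene was tested if all libraries of 1 or more conditions reached 10 normalised counts, with edgeR 4.0.16 (R 4.3.3; TMM, quasi-likelihood test, Benjamini-Hochberg adjustment over all tested genes, threshold 0.05), in a model of the 5 libraries and in a model of 11 with LIF, Dox and their interaction. Differences from 44iN cells and between guides were interaction terms in models with those libraries. DESeq2 1.42.0, its size factors in edgeR, other filters, each library left out, and the clone as a block were alternatives, and a GC-content offset (spline with 4 degrees of freedom) was added after seeing the data. Scripts were tested on simulated data. Pairing comes from the clone labels: deviations from the group mean of libraries of the same clone correlated at 0.00918 to 0.249 (with 2 +Dox libraries, those of different clones are the same values with the sign turned). Replicates differed by more than sampling noise (chi-square per degree of freedom of 13.5 or more).

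The genes named were Nanog, Esrrb, Klf4, Otx2 and Phf19, the 12 largest and 12 smallest log2 fold changes under the criteria given, list members called or with non-overlapping libraries and an unadjusted p under 0.05 (all members of the pluripotency and epiblast lists), genes within 500 kb of Nanog, genes with a guide match in the promoter, and named genes whose response differed between conditions. Members and lists were chosen with earlier results of these data known. A result of 1 further named gene is not reported here. A few further list members are named for overlap, chosen after their values were seen. The guide was read from the study's oligonucleotide table, and its sites were found in the mm9 genome. Python 3.11.15, pandas 2.3.3, numpy 2.4.6 and scipy 1.17.1 were used.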

Additional observations from a re-analysis of the deposited data

Results flagged for a closer look

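The Dox response differed between Nanog SunTag cells with and without LIF for 302 genes by the interaction term of edgeR's quasi-likelihood test. The differences below are the log2 fold change with LIF minus that without, for named genes among them. Lower values with LIF were found for genes of the pluripotency network, with -3.11 for Esrrb, -2.42 for Klf4, -2.65 for Klf2, -2.40 for Klf5, -3.88 for Zfp42, -2.75 for Nr5a2, -3.51 for Nr0b1, -3.05 for Prdm14, -1.95 for Tfcp2l1, -3.24 for Tet2, -3.001 for Tcl1, -2.30 for Fbxo15 and -2.30 for Zfp57. The same held for Il6st (-1.84), Prdm1 (-2.65), Lef1 (-2.36), Mcf2 (-2.45), Ccnd1 (-1.11) and Atxn3 (-5.42). Higher values with LIF were found for Ecel1 (3.77), B3gnt3 (3.20), Sox3 (2.82), Igdcc3 (2.61), Col6a2 (2.45), Dgkk (2.44), Krt8 (1.94), Pou3f1 (1.73) and Pim2 (1.51). Reads of Pou3f1 can be divided over 2 identifiers that the tables give for it.

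Between the guides the Dox response with LIF differed for 1 gene, Otx2, by -3.62 (log2 fold change in Nanog SunTag minus that in Nanog/Otx2 SunTag cells).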

How the results depend on the processing

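For the 5 libraries, the 0 calls became 163 with DESeq2, 84 with no filter on low counts, 0 with the replicate block and 3 with the block and GC correction (Hoxa13, Pdgfc and Pla2g4e), and leaving out single libraries gave 0 to 1. In the 11-library model the 88 calls became 587 with DESeq2 (54.9% of them higher, against 75%), 246 with GC correction (52.8% higher), 151 with no filter (63.6%), 293 with the replicate block (59.7%), 874 with block and GC correction (43.2%), and 3 to 142 without single libraries. Of the 88, 87 were among the calls with GC correction and 88 with the block.

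The 302 genes that differed with LIF became 877 with DESeq2, 458 with GC correction, 709 with the replicate block, 1153 with block and GC correction and 111 to 481 without single libraries. The difference from 44iN cells went from 0 calls to 15 with DESeq2, 111 with no filter and 2 with the block, and that between guides from 1 to 11 with DESeq2, 5 with the block and 1 to 7 without single libraries. The 3941 genes with non-overlapping libraries became 7265 without -Dox C1-1, 7087 without +Dox C1-1, 8699 without +Dox C2-1 and 5099 to 8699 over all 5, which follows from having fewer libraries to keep apart.

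Of 810 recomputed fold changes of 81 named genes, 9 changed sign, all in genes near 0. Klf4 took 0.022 with the block and from -0.094 to 0.048 without single libraries. Phf19 took -0.045 with GC correction, -0.013 with the block, -0.20 with both, and from -0.47 to 0.46 without single libraries. In the fit of the 5 libraries Nanog passed the threshold with DESeq2 only. The cause was not tested for these changes.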
